A study of Mus musculus with 20 samples.

Results

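The genes described here are 10 cerebellar neuron genes, 7 of Purkinje cells and 3 of granule cells, out of 54532 genes in the deposited count table. They are Pcp2, Car8, Calb1, Ppp1r17, Slc1a6, Itpr1 and Rgs8 for Purkinje cells and Gabra6, Cbln3 and Fat2 for granule cells. They were looked up by gene name, and the set had been put together from earlier results on the same libraries, so their differences between genotypes are given as a description without p-values. All 10 passed the filter on low counts and were among the 18336 genes tested.

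The libraries were polyadenylated RNA from 1 brain hemisphere of mice of 4 genotypes, with 5 libraries each. DKO mice were labelled as knockouts of Glb1 and Neu3, Glb1KO mice as knockouts of Glb1, Neu3KO mice as knockouts of Neu3, and the WT mice as controls. The enzyme made from Glb1 is beta-galactosidase, which takes galactose off GM1 ganglioside in lysosomes, and Neu3 makes a membrane sialidase that trims sialic acid from gangliosides. The sources used here state neither strain nor age, nor how the knockouts were made. Each library carried its own identifier, but no label stated that the 5 libraries of a genotype came from separate animals, so the p-values measure only the spread between these libraries, which may be technical.

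Purkinje cells are the large output neurons of the cerebellar cortex and use GABA. Granule cells are the small and far more numerous glutamatergic neurons whose parallel fibres run through the Purkinje cell dendrites. A burst of parallel fibre activity makes phospholipase C form inositol trisphosphate in Purkinje dendrites, and the receptor encoded by Itpr1 then releases calcium from the endoplasmic reticulum. In whole-hemisphere RNA, fewer cells of a type and less RNA per cell cannot be told apart.

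Promoters of 4 genes are shown as examples of both gene groups, whose means in DKO differed in direction or size. Each sequence is the 250 bases before the annotated start in RefSeq (GRCm38.p6), 5′ to 3′ on the strand of the gene. Capitals mark 2 motifs that were searched on both strands: AGGTCA, the half-site bound by ROR factors and other nuclear receptors, and TTGGCA, the half-site of nuclear factor I, which reads TGCCAA on the other strand. The coordinates are chr8:3625548-3625797 on the minus strand for Pcp2, chr10:78780246-78780495 on the plus strand for Slc1a6, chr11:42321073-42321322 on the minus strand for Gabra6 and chr14:55884257-55884506 on the minus strand for Cbln3.
Pcp2: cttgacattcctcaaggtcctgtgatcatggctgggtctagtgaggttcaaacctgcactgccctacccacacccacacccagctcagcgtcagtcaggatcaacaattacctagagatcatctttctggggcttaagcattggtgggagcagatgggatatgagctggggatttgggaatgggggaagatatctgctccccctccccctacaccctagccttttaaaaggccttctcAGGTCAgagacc
Slc1a6: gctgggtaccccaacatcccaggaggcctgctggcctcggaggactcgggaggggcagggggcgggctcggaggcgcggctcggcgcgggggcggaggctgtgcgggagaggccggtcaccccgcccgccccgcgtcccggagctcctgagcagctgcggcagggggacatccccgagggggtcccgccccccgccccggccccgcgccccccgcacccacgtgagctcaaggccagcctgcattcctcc
Gabra6: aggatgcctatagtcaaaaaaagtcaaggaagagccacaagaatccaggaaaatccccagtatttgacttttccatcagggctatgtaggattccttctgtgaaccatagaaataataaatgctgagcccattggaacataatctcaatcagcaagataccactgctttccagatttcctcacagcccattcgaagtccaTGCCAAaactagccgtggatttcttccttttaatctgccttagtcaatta
Cbln3: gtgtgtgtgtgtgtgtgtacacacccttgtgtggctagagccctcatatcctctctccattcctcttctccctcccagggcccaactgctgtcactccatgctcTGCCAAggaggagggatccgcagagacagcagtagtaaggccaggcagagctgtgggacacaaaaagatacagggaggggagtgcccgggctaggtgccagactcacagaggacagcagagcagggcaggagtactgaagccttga

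The Pcp2 window held AGGTCA with its first base 12 bases before the start, and the Slc1a6 window held neither motif. The Gabra6 and Cbln3 windows each held TTGGCA on the opposite strand, beginning 50 and 146 bases before the start. RefSeq windows were found for 6 of the 10 genes, the other 2 being Rgs8, with neither motif, and Fat2, with AGGTCA. The RefSeq start used for Fat2 lay 24307 bases from the gene start of the count table, and that for Cbln3 136 bases from it. Both lay inside the gene as placed in the count table, so the Fat2 window was wholly and the Cbln3 window partly within its gene. AGGTCA was in 2 of the 6 windows and in 14.02% of all 32851 promoter windows of the same length. TTGGCA was in 2 of the 6 and in 12.28% of all windows, while the letters TATAAA of the TATA box were in none of the 6 and in 12.37% of all windows. These matches describe letters and not bound sites. Car8, Calb1, Ppp1r17 and Itpr1 had no window in the table.

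DKO libraries had total counts of 16682458 to 18525446, Glb1KO libraries of 15734414 to 20391893, Neu3KO libraries of 15162311 to 25145806 and WT libraries of 16649633 to 19212266. Glb1 averaged 19.8% of the WT level in DKO and 16.7% in Glb1KO, while Neu3 was at 77.4% of WT in DKO and 74.4% in Neu3KO and its groups overlapped. The counts per gene therefore check the label of the Neu3 knockout only weakly, which bears on each direction drawn from the libraries labelled DKO or Neu3KO. Library identifiers began with E in 2 DKO, 2 Glb1KO, 1 Neu3KO and 5 WT libraries, with W in 3 DKO and 4 Neu3KO libraries and with L in 3 Glb1KO libraries. What the letters stand for was not given. DKO replicate 2 had the lowest level of 6 of the 7 Purkinje genes among all 20 libraries, and Neu3KO replicates 1 and 5 were low for most of the 10 genes. Over all genes WT replicate 1 stood apart from the other WT libraries, with a chi-square per degree of freedom of 22.2 to 30.3, against at most 14.3 between other libraries of 1 genotype.

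The Purkinje genes were lower in DKO libraries than in WT libraries for 7 of 7 genes, with no overlap between the groups. Of the granule genes Gabra6 was lower on average and Cbln3 and Fat2 higher on average, and all 3 overlapped. Means of the Purkinje genes in DKO lay between 40.8% and 64.8% of the WT mean. In Glb1KO the same genes lay between 91.5% and 111% of WT, and in Neu3KO between 88.3% and 104%. Of all genes tested, 9.35% were lower and 9.28% higher in DKO than in WT with no overlap.

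Levels below are CPM, the reads of a gene scaled to the library's total with TMM factors, in the order of replicates 1 to 5. Itpr1 (ENSMUSG00000030102, GRCm38 chromosome 6, 108213096 to 108551109, plus strand) codes for the inositol trisphosphate receptor. It had 799.7, 605, 758, 884 and 670.5 CPM in DKO, 1103, 1123, 1214, 1089 and 1147 CPM in Glb1KO, 1044, 1288, 1197, 1337 and 1266 CPM in Neu3KO, and 1304, 1245, 1275, 1167 and 1213 CPM in WT. Every DKO library was below every library of the other genotypes. The log2 fold change of DKO over WT was -0.74 (SE 0.07, n = 5 each), the most precisely measured of the 10.

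Car8 (ENSMUSG00000041261, chromosome 4, 8143362 to 8239041, minus strand) codes for a carbonic anhydrase relative without enzyme activity that binds the Itpr1 receptor and lowers its affinity for inositol trisphosphate. It had 122, 43.1, 89.2, 143 and 57.7 CPM in DKO, 231, 219.7, 258, 192 and 207 CPM in Glb1KO, 161, 252, 246, 249 and 169 CPM in Neu3KO, and 208, 253, 230.1, 201 and 224 CPM in WT. The DKO libraries again lay below all others, and the DKO mean of 40.8% of WT was the lowest of the 10 genes. Its log2 fold change of DKO over WT was -1.29 (SE 0.25, n = 5 each).

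Calb1 (ENSMUSG00000028222, chromosome 4, 15881264 to 15908064, plus strand) codes for the calcium buffer calbindin, which neurons of hippocampus and striatum also make. It had 168, 119, 138, 169.8 and 112 CPM in DKO, 229.7, 238, 246, 192 and 215 CPM in Glb1KO, 193, 234, 246, 243 and 215 CPM in Neu3KO, and 183, 240.1, 232, 209 and 228 CPM in WT. The highest DKO library stayed below the lowest WT library, by a smaller margin than for Car8. DKO over WT gave a log2 fold change of -0.63 (SE 0.11, n = 5 each). How much of the RNA of Calb1, or of Itpr1, Rgs8 and the other Purkinje genes, came from other brain cells was not measured.

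Pcp2 (ENSMUSG00000004630, chromosome 8, 3623371 to 3625545, minus strand) codes for a GoLoco protein that modulates G proteins of the Gi and Go class and is nearly confined to Purkinje cells in brain. It had 13.0, 4.38, 11.5, 16.6 and 7.27 CPM in DKO, 23.5, 21.2, 27.3, 23.3 and 23.5 CPM in Glb1KO, 15.2, 26.2, 18.8, 22.2 and 16.0 CPM in Neu3KO, and 18.5, 25.9, 21.9, 19.1 and 21.8 CPM in WT. DKO replicate 4 reached the range of the 2 low Neu3KO libraries, and no DKO library reached the WT range. The lowest value rested on 74 reads, and the log2 fold change of DKO over WT was -1.02 (SE 0.25, n = 5 each).

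Ppp1r17 (ENSMUSG00000002930, chromosome 6, 56017497 to 56032689, plus strand) codes for G-substrate, a protein phosphatase inhibitor that is switched on by cGMP-dependent protein kinase in Purkinje cells. It had 14.5, 3.79, 12.3, 17.4 and 5.63 CPM in DKO, 22.8, 26.9, 25.1, 21.7 and 23.0 CPM in Glb1KO, 15.7, 24.9, 22.2, 22.8 and 15.5 CPM in Neu3KO, and 21.5, 24.0, 21.6, 20.8 and 22.7 CPM in WT. The WT libraries were close together and the DKO libraries far apart, with the highest DKO value 4.59 times the lowest and the highest WT value 1.15 times the lowest. The log2 fold change of DKO over WT was -1.04 (SE 0.28, n = 5 each).

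Slc1a6 (ENSMUSG00000005357, chromosome 10, 78780496 to 78814765, plus strand) codes for the glutamate transporter of the Purkinje cell membrane, which clears transmitter around parallel fibre synapses. It had 19.0, 15.1, 19.1, 23.8 and 15.4 CPM in DKO, against 29.0, 34.1, 38.2, 33.4 and 37.6 CPM in WT, and ranged from 29.1 to 37.1 CPM in Glb1KO and from 24.2 to 35.6 CPM in Neu3KO. All DKO libraries were below all others, with a log2 fold change of DKO over WT of -0.90 (SE 0.11, n = 5 each).

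Rgs8 (ENSMUSG00000042671, chromosome 1, 153653025 to 153700323, plus strand) codes for a regulator of G protein signalling that speeds the switching-off of Gi and Go proteins. It had 216, 140.3, 183, 203 and 153 CPM in DKO, against 298, 332, 330.2, 304 and 311 CPM in WT, and ranged from 296 to 345 CPM in Glb1KO and from 260.3 to 350.1 CPM in Neu3KO. The DKO libraries stood clear of the rest, and this was the only Purkinje gene for which DKO replicate 1 and not replicate 4 was the highest of the 5. The log2 fold change of DKO over WT was -0.81 (SE 0.10, n = 5 each).

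**Figure D1:**
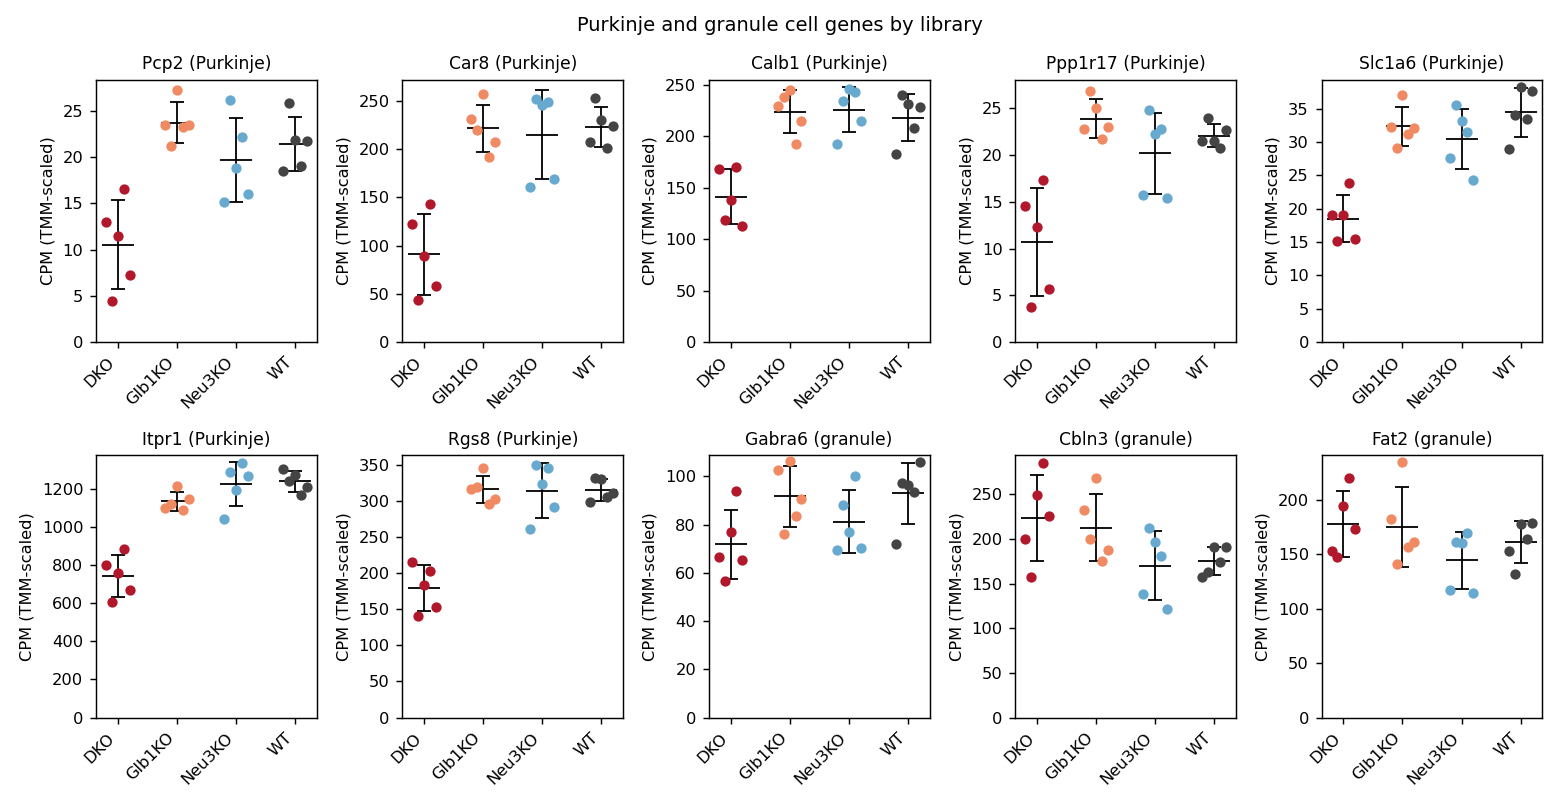
TMM-scaled CPM of each of the 10 genes (vertical axis, from 0) in DKO, Glb1KO, Neu3KO and WT brain, 5 libraries each; points are libraries, horizontal lines means and bars 1 SD. The DKO points of the 7 Purkinje genes lie below the WT points, while those of Gabra6, Cbln3 and Fat2 overlap them.

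Among the granule genes, Gabra6 (ENSMUSG00000020428, chromosome 11, 42306437 to 42321072, minus strand) codes for a GABA-A receptor subunit made almost only by cerebellar granule cells in the cerebellum. It had 66.4, 56.6, 76.7, 93.9 and 65.4 CPM in DKO, 102, 76.1, 106, 83.7 and 90.4 CPM in Glb1KO, 69.3, 88.3, 77.1, 100.2 and 70.5 CPM in Neu3KO, and 72.0, 97.1, 96.2, 93.6 and 106 CPM in WT. DKO replicates 1, 2 and 5 were below the lowest WT library, while replicates 3 and 4 were inside the WT range. The log2 fold change of DKO over WT was -0.37 (SE 0.14, n = 5 each).

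Cbln3 (ENSMUSG00000040380, chromosome 14, 55878913 to 55884392, minus strand) codes for a cerebellin that is secreted together with Cbln1 from parallel fibres. It had 200.0, 158, 249, 285 and 225 CPM in DKO, 232, 200.2, 268, 175 and 187 CPM in Glb1KO, 138, 213, 196, 181 and 122 CPM in Neu3KO, and 157, 163, 191, 174 and 191 CPM in WT. The DKO libraries lay above the WT range, except for replicate 2, which lay inside it. The log2 fold change of DKO over WT was 0.35 (SE 0.17, n = 5 each).

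Fat2 (ENSMUSG00000055333, chromosome 11, 55250609 to 55336564, minus strand) codes for a giant protocadherin of granule cells and their parallel fibres. It had 153, 147, 194, 220.1 and 174 CPM in DKO, against 153, 132, 178, 164 and 179 CPM in WT, and ranged from 141 to 235 CPM in Glb1KO and from 115 to 169 CPM in Neu3KO. The groups overlapped throughout, with a log2 fold change of DKO over WT of 0.14 (SE 0.16, n = 5 each).

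The upward values of Cbln3 and Fat2 depended on the identifier letter. With the letter as a term in the fit, the log2 fold change of DKO over WT was 0.06 for Cbln3, -0.10 for Fat2 and -0.58 for Gabra6. Restricted to the E libraries, a choice made after the data were seen, these values were 0.03, -0.10 and -0.60 in that order, with 2 DKO and 5 WT libraries. The Purkinje genes did not turn with the letter: with the same term Pcp2 was at -1.31, Car8 at -1.50, Ppp1r17 at -1.29 and Itpr1 at -0.86. Among the E libraries 5 of the 7 Purkinje genes passed the test of the all-gene fit, with 2640 passing over all genes. Nothing is read from this count, since the genes were chosen with results known. Genotype and letter are partly confounded, since all WT libraries carry E.

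Compared per length in the deposited FPKM values, Itpr1 led the Purkinje genes in DKO with 40.3 ± 5.93 FPKM (SD, n = 5), followed by Calb1 at 29.0 ± 5.53, Car8 at 23.5 ± 10.9 and Rgs8 at 18.5 ± 3.32 FPKM. In WT the order was Itpr1 at 67.1 ± 2.94 FPKM (SD, n = 5), Car8 at 57.4 ± 5.32, Calb1 at 44.6 ± 4.75 and Rgs8 at 32.4 ± 1.62 FPKM. Car8 thus ranked below Calb1 in DKO and above it in WT, although in DKO the SDs of the pair overlapped. Slc1a6, Ppp1r17 and Pcp2 were the lowest Purkinje genes, at 8.53, 6.06 and 5.73 FPKM in DKO and 15.9, 12.5 and 11.6 FPKM in WT. In DKO Ppp1r17 and Pcp2 differed by less than the SD of either, and in WT their libraries overlapped. Of the granule genes, Cbln3 had 45.6 FPKM, Gabra6 28.7 FPKM and Fat2 12.1 FPKM in DKO, against 35.7, 37.0 and 11.0 FPKM in WT, so Cbln3 and Gabra6 were close in WT and apart in DKO.

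The fits of all pairs of genotypes used the same 20 libraries, and comparisons with WT share the WT libraries, so their values stand side by side without a comparison of the lists. In DKO over WT, where 29.0% of all genes passed the test, 14.0% as higher and 15.1% as lower (edgeR quasi-likelihood test, Benjamini-Hochberg adjustment at 0.05), 7 of 7 Purkinje genes and 0 of 3 granule genes passed. The median log2 fold change was -0.90 for the Purkinje genes, 0.14 for the granule genes and -0.003 for all genes tested. In DKO over Glb1KO, where 15.7% of all genes passed, 8.41% as higher and 7.29% as lower, the counts were again 7 of 7 and 0 of 3. Among the E libraries, with 2 of each genotype, 3 of 7 Purkinje genes passed that comparison, with 936 passing over all genes. In DKO over Neu3KO, where 25.1% passed, 12.3% as higher and 12.8% as lower, the counts were 7 of 7 and 0 of 3. Since the genes were chosen on these contrasts, nothing is read from the counts.

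Against Glb1KO, whose libraries lack the same lysosomal enzyme, DKO had log2 fold changes of -1.28 for Car8 (SE 0.25), -1.17 for Pcp2 (SE 0.25), -1.16 for Ppp1r17 (SE 0.28), -0.82 for Rgs8 (SE 0.10), -0.81 for Slc1a6 (SE 0.11), -0.67 for Calb1 (SE 0.11) and -0.61 for Itpr1 (SE 0.07). None of these 7 genes overlapped between DKO and Glb1KO, where 5.25% of all genes were lower and 6.78% higher with no overlap. Against Neu3KO, 5 of the 7 did not overlap, with shares of 7.20% lower and 8.43% higher over all genes, and Pcp2 and Ppp1r17 did. The 3 granule genes overlapped in both comparisons. Gabra6, Cbln3 and Fat2 were at -0.36, 0.07 and 0.02 against Glb1KO and at -0.17, 0.40 and 0.30 against Neu3KO.

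Between Glb1KO and WT, 3.96% of all genes passed, 1.75% as higher and 2.21% as lower, and of the 10 genes 0 did. All 10 overlapped between the groups, where 2.96% of all genes were lower and 2.60% higher with no overlap. The log2 fold changes of the Purkinje genes ran from -0.13 for Itpr1 (SE 0.07) to 0.15 for Pcp2 (SE 0.23), and those of the granule genes from -0.02 for Gabra6 to 0.28 for Cbln3. In Neu3KO over WT the share of all genes was 0%, with 1105 genes under an unadjusted p of 0.05 and 2 called by DESeq2, and the 10 genes ran from -0.20 for Gabra6 to 0.05 for Calb1. All 10 overlapped here too, against 0.660% of all genes lower and 0.524% higher with no overlap. Without Neu3KO replicates 1 and 5 together, a choice made after the data were seen, the 10 genes ran from -0.07 for Gabra6 to 0.17 for Cbln3 and 0 passed. In DKO over Neu3KO without them, Car8 was at -1.45, Ppp1r17 at -1.12, Pcp2 at -1.09, Rgs8 at -0.92, Slc1a6 at -0.86, Itpr1 at -0.78 and Calb1 at -0.77. With all libraries, the SEs of Pcp2, Car8 and Ppp1r17 in Glb1KO or Neu3KO over WT were wide, between 0.23 and 0.27. Without Neu3KO replicates 1 and 5 they were 0.27, 0.27 and 0.31 in that order, both in Neu3KO over WT and in DKO over Neu3KO.

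**Figure D2:**
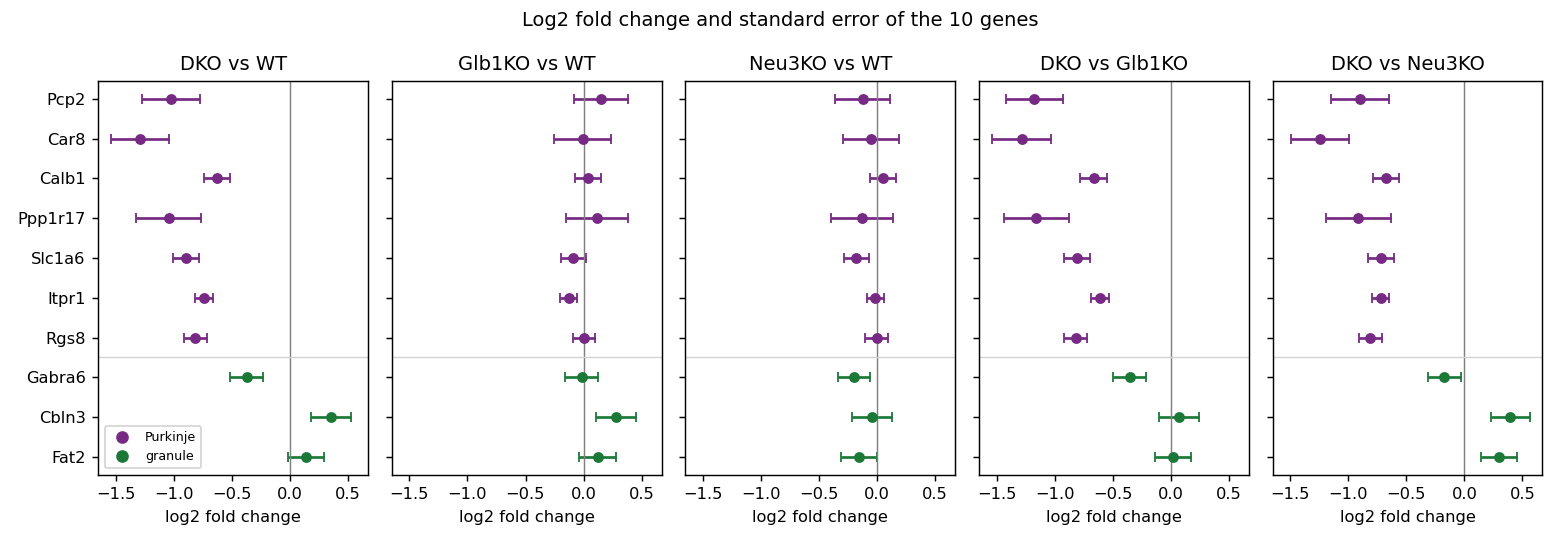
Log2 fold change (horizontal axis, points) with its standard error (bars) for the 10 genes in 5 comparisons of genotypes, Purkinje genes above the grey line and granule genes below it. In the 3 comparisons with DKO the Purkinje genes lie left of 0, and in Glb1KO or Neu3KO over WT they lie near it.

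The interaction asks whether the difference of DKO from Glb1KO departs from that of Neu3KO from WT. It was -1.23 for Car8 (SE 0.35), -1.05 for Pcp2 (SE 0.34), -1.03 for Ppp1r17 (SE 0.39), -0.81 for Rgs8 (SE 0.14), -0.72 for Calb1 (SE 0.16), -0.63 for Slc1a6 (SE 0.15) and -0.59 for Itpr1 (SE 0.11) on the log2 scale. For Gabra6, Cbln3 and Fat2 it was -0.16, 0.12 and 0.18, each within 1 SE of 0. Of all genes tested, 6.84% passed, 3.96% upward and 2.88% downward, and 5 of the 7 Purkinje genes were called, a count that fell to 2 with the identifier letter as a term. Nothing is read from it, since the genes were chosen on contrasts with DKO. Those not called were Pcp2 and Ppp1r17, which have the widest errors beside Car8.

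For these 10 genes the 5 DKO libraries differed from each other more than the WT libraries did, and in a shared order. DKO replicate 2 was the lowest of the 5 for 6 of 7 Purkinje genes and for 3 of 3 granule genes, and replicate 4 was the highest for 6 of 7 and 3 of 3. Replicate 5 was second lowest for 6 of the 7 Purkinje genes but for 1 of the 3 granule genes. The ratio of the highest to the lowest DKO library was 4.59 for Ppp1r17, 3.78 for Pcp2 and 3.32 for Car8, and between 1.46 and 1.57 for the other 4 Purkinje genes.

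**Figure D3:**
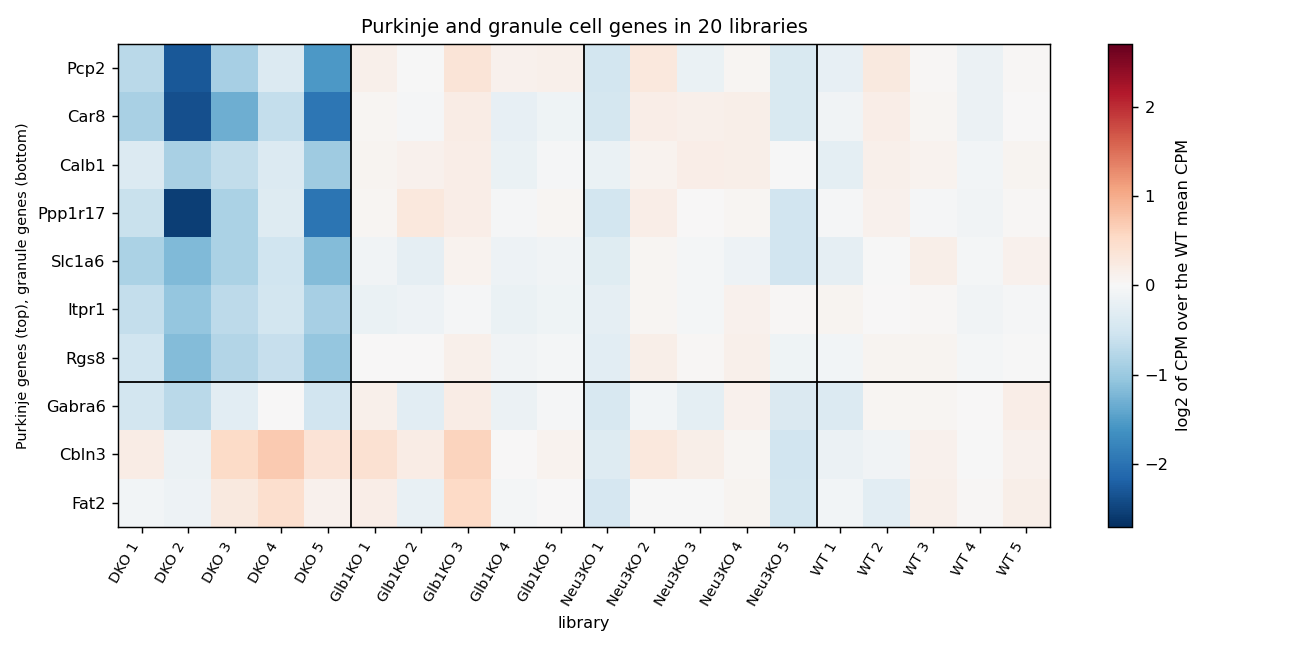
Log2 of the CPM over the WT mean CPM (colour, blue below and red above the WT mean) of the 7 Purkinje genes and 3 granule genes (rows, top to bottom) in 20 libraries (columns, DKO at the left and WT at the right). DKO replicates 2 and 5 are the darkest blue in most Purkinje rows.

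DKO replicates 2 and 5 were left out together, a choice made after the data were seen. The log2 fold change of DKO over WT was then -0.91 for Car8, -0.64 for Pcp2, -0.60 for Itpr1 and -0.58 for Ppp1r17. In that fit 7 of 7 Purkinje genes were called, with 4275 called over all genes, and nothing is read from the count. The other 3 DKO libraries thus lay closer to WT for Pcp2 and Ppp1r17 than the group mean shows. Without WT replicate 1 the log2 fold change was -1.31 for Car8, -1.07 for Pcp2, -1.05 for Ppp1r17, -0.71 for Itpr1 and -0.45 for Gabra6. The mean log2 level over WT of the activated microglia genes was 5.33, 5.13, 5.14, 4.94 and 4.97 in DKO replicates 1 to 5. That of the reactive astrocyte genes was 3.73, 3.81, 4.05, 3.92 and 4.37. Replicate 2 carries the identifier letter E and replicate 5 carries W. Whether glia or letter have a part in the order of the DKO libraries was not tested.

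Taking the difference within a library sets both gene groups on the same scale. The mean log2 level of the 7 Purkinje genes less that of the 3 granule genes, set to 0 for the WT mean, was -0.54, -1.30, -1.04, -0.87 and -1.35 in DKO. It averaged -1.02 ± 0.33 in DKO, -0.11 ± 0.16 in Glb1KO, 0.07 ± 0.07 in Neu3KO and 0 ± 0.14 in WT (SD, n = 5 each). The DKO libraries were all below those of the other genotypes, and Glb1KO replicate 3 came nearest at -0.29. There were 19.6, 7.74, 15.0, 17.6 and 11.1 Pcp2 reads per 100 Gabra6 reads in DKO, against 20.4 to 26.7 in WT, 23.0 to 27.9 in Glb1KO and 21.9 to 29.6 in Neu3KO. DKO replicate 1, at 19.6, was just below the lowest WT library.

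Neu3KO replicates 1 and 5 were low in both gene groups, at -0.35 and -0.27 for the Purkinje genes and -0.40 and -0.46 for the granule genes relative to WT. Their Purkinje less granule values of 0.05 and 0.19 were inside the range of the other Neu3KO and WT libraries. In these 2 libraries the genes of both cell types were low together. DKO replicates 1 to 5 were at -0.65, -1.62, -0.86, -0.48 and -1.35 for the Purkinje genes. For the granule genes they were at -0.11, -0.33, 0.18, 0.40 and -0.005, so DKO replicate 2 was also low in both groups. What lies behind either pattern was not tested.

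**Figure D4:**
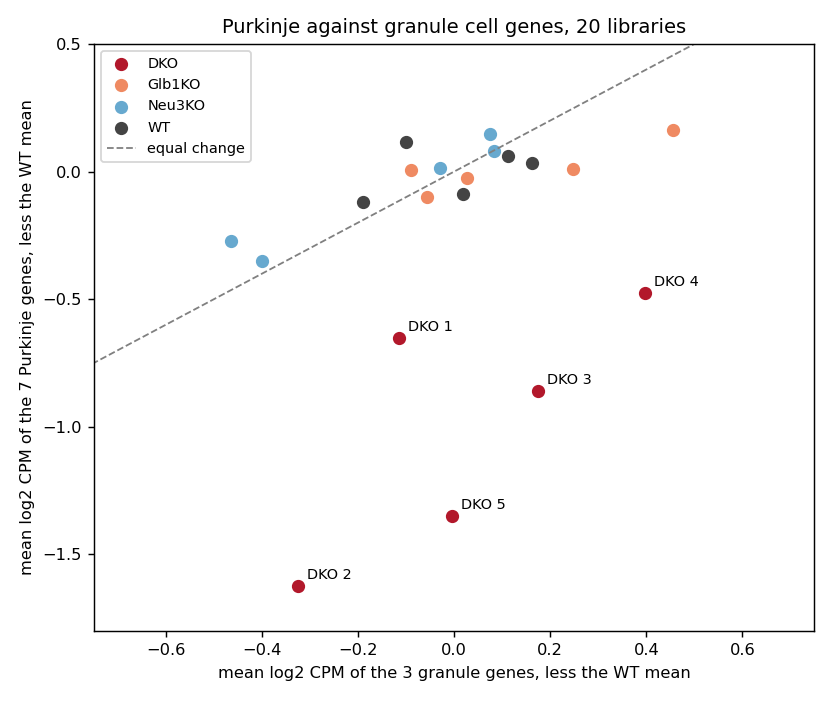
Mean log2 CPM of the 7 Purkinje genes (vertical axis) against that of the 3 granule genes (horizontal axis), each less its WT mean, in 20 libraries; colours are genotypes, and the dashed line marks an equal change of both. The DKO libraries lie below the line by 0.54 to 1.35, and the 2 lowest Neu3KO libraries lie near it.

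Within genotypes the genes moved together from library to library. After the genotype means were removed, Pcp2 and Ppp1r17 had a Pearson r of 0.944 over 20 libraries (permutation p = 6e-05, adjusted p = 0.00018 over 3 relations) and a Spearman rho of 0.845 (permutation p = 0.00083). Gabra6 and Fat2 had r = 0.782 (permutation p = 0.0003, adjusted p = 0.00045) and rho = 0.794 (permutation p = 0.00029). Pcp2 and Gabra6, 1 gene of each cell type, had r = 0.734 (permutation p = 0.00078, adjusted p = 0.00078) and rho = 0.756 (permutation p = 0.00027). The tests were two-sided, with 100000 permutations of libraries within a genotype.

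Without the 2 libraries farthest from the median, r was 0.852, 0.804 and 0.608 in the same order, and with the means of genotype and identifier letter removed it was 0.941, 0.703 and 0.672 over 19 libraries. Without the DKO libraries, an alternative added after the data were seen, it was 0.768, 0.723 and 0.740 over 15 libraries. All adjusted permutation p-values in these settings were under 0.05, the highest being 0.0161 for Pcp2 with Ppp1r17 without the DKO libraries. Libraries share depth and the amount of cerebellum in the hemisphere, and the part of either in these relations was not tested.

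Other Purkinje-enriched genes, listed with earlier results known and not among the 10, were all lower in DKO than in WT. The test was passed by 10 of 10, with a median log2 fold change of -0.68, while 15.1% of all genes passed as lower. Since the genes were listed with results of these libraries known, the count and the p-values below are a description. Atp2a3, a calcium pump of the endoplasmic reticulum, had 26.1, 14.7, 21.2, 27.2 and 19.7 CPM in DKO, against 61.2, 51.6, 60.7, 56.5 and 61.5 CPM in WT (log2 -1.42, SE 0.14, edgeR adjusted p = 3.46e-07). The groups were separated completely. The corepressor gene Skor2 was at -1.43 (SE 0.25) from a WT mean of 3.68 CPM, and Arhgef33, a guanine nucleotide exchange factor gene, at -1.02 (SE 0.21).

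Without DKO replicates 2 and 5, 5 of these 10 remained past the threshold, and Lhx1, Lhx5, Gng13, Homer3 and Ebf2 did not, with values from -0.27 to -0.48. The mean log2 level of the 10 genes relative to WT was -0.63, -1.34, -0.70, -0.44 and -1.01 in DKO replicates 1 to 5. Replicate 2 was the lowest and replicate 4 the highest of the 5, as for the 7 Purkinje genes above. In Glb1KO over WT 0 of the 10 passed, with a median of -0.11, and DESeq2 also called 0, while 2 passed when the compared groups were fitted alone. In DKO over Glb1KO 6 of the 10 were lower, and in the interaction 4 of 10 passed, among them Atp2a3, Gng13 and Arhgef33. Over all genes 3.96% passed in Glb1KO over WT, 7.29% were lower in DKO over Glb1KO and 6.84% passed in the interaction. The interaction call of Arhgef33 was lost under most alternatives, with an edgeR adjusted p of up to 0.181.

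Purkinje genes that other neurons also use were lower in DKO than in WT in 13 of 17 cases, with 0 higher and a median of -0.40. The T-type calcium channel gene Cacna1g was at -0.63 (SE 0.07), the Notch ligand gene Dner at -0.43 (SE 0.05) and Clmn at -0.43 (SE 0.06). The 4 that did not pass, named after their values were seen, were Pcp4 at -0.36, Rora at -0.11, Plcb3 at -0.01 and Pvalb at 0.09. Between Glb1KO and WT 1 of 17 was lower, Clmn at -0.27 (edgeR adjusted p = 0.00158). In DKO over Glb1KO 14 of 17 were lower. The shares of all genes called lower were 15.1% in DKO over WT, 2.21% in Glb1KO over WT and 7.29% in DKO over Glb1KO.

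Other granule cell genes were lower in DKO than in WT in 4 of 16 cases, with 0 higher and a median of -0.13. Of all genes tested 15.1% were lower and 14.0% higher, and nothing is read from the count. Gabrd, the delta subunit that pairs with Gabra6 outside synapses, had 59.3, 56.7, 62.9, 68.8 and 60.4 CPM in DKO, against 80.8, 75.6, 82.8, 79.0 and 80.8 CPM in WT (log2 -0.37, SE 0.06, edgeR adjusted p = 2.32e-05). Zic1, a transcription factor of the granule lineage, had 161, 148, 156, 192 and 159.9 CPM in DKO, against 198, 207, 235, 223 and 228 CPM in WT (log2 -0.42, SE 0.10, edgeR adjusted p = 0.00219). Neither overlapped between the groups. Calb2 at -0.32 and Etv1 at -0.21 also passed, but both lost the call when single libraries were left out and under several other alternatives, with edgeR or DESeq2 adjusted p-values of up to 0.227 and 0.264. Cbln1, the partner of Cbln3, was at 0.13 and did not pass. Of the 16, 0 passed in Glb1KO over WT by the main test and by DESeq2, while 3.96% of all genes passed the main test.

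**Figure D5:**
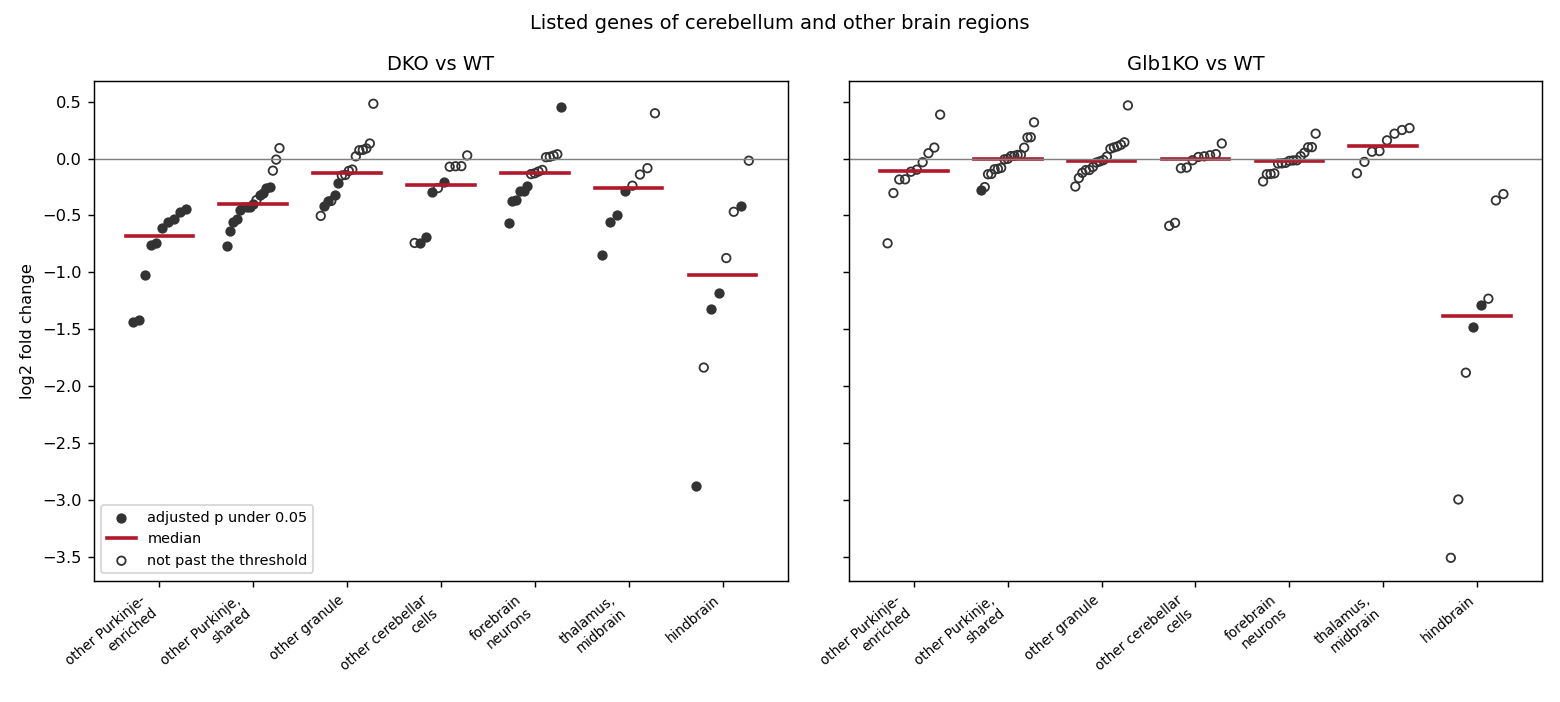
Log2 fold change (vertical axis) of the genes of 7 lists in DKO over WT and in Glb1KO over WT; filled points passed the test at an adjusted p of 0.05, open points did not, and red lines are medians. The medians in DKO over WT are -0.68 and -0.40 for the Purkinje lists and -0.13 for the granule list, and the hindbrain list has the lowest median in both panels, -1.03 and -1.39.

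Markers of neighbouring cells and regions give the setting of these values. In DKO over WT 15.1% of all genes passed as lower and 14.0% as higher, and nothing is read from the counts of these small lists. Genes of Bergmann glia, unipolar brush cells and cerebellar interneurons were lower in DKO than in WT in 4 of 10 cases, with a median of -0.23. They were Grm2 at -0.29, Sorcs3 at -0.21, Tfap2a at -0.74 and Gdf10 at -0.69, and each of the 4 lost its call under some alternatives, with adjusted p-values of up to 0.112, 0.128, 0.116 and 0.266 in that order from edgeR or DESeq2. Neuron genes of cortex, hippocampus and striatum had 1 higher and 6 lower of 15, with a median of -0.13, Lamp5 at -0.57 and Ppp1r1b at 0.45. Neuron genes of thalamus and midbrain had 4 lower of 8, with a median of -0.26.

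Of the neuron genes of hindbrain and spinal cord, 4 of 8 were lower in DKO and 2 of 8 in Glb1KO than in WT, with medians of -1.03 and -1.39. The shares over all genes were 15.1% and 2.21%. With the identifier letter as a term each of the calls on this list was lost. Their mean log2 level relative to WT lay between -1.63 and -0.88 in DKO libraries, between -2.07 and -1.46 in Glb1KO libraries, between -2.48 and 0.26 in Neu3KO libraries and between -0.34 and 0.35 in WT libraries. Neu3KO replicates 3 and 5, at -2.48 and -1.68, were as low as Glb1KO libraries or lower. Neu3KO replicate 2, at -1.22, lay above the Glb1KO range and inside the DKO range. Summed over the list this was 36.4 to 57.3 CPM in DKO, 26.3 to 42.8 CPM in Glb1KO, 29.6 to 96.6 CPM in Neu3KO and 75.2 to 119 CPM in WT. The low hindbrain level in Glb1KO stood beside Purkinje genes at 91.5% to 111% of WT. Whether the amount of hindbrain in the hemisphere has a part in the cerebellar values was not tested.

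Activated microglia genes were higher in 8 of 8 cases in DKO over WT, with a summed level of 767 to 903 CPM in DKO and 20.2 to 27.7 CPM in WT. Reactive astrocyte genes were higher in 6 of 6, and myelin genes lower in 8 of 8 with a median of -0.98. Over all genes 14.0% were higher and 15.1% lower in DKO over WT, and 1.75% higher and 2.21% lower in Glb1KO over WT. In Glb1KO over WT the same lists had 8 of 8 higher, 3 of 6 higher and 8 of 8 lower, beside Purkinje genes near the WT level. The part of the glial changes in the Purkinje values was not tested. The summed astrocyte level was 4268 to 5073 CPM in DKO.

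Of the genes around the Itpr1 receptor in the calcium signalling of Purkinje cells, 15 of 23 were lower and 3 higher in DKO than in WT. Their median was -0.40, and 15.1% of all genes were lower and 14.0% higher. On the side that sends the signal, the phospholipase gene Plcb4 was at -0.45 (SE 0.06), whereas the G protein genes Gnaq and Gna11, at -0.11 and -0.005, did not pass. These 3, with Itpr2 and Itpr3 below and with Lhx1 and Lhx5 above, were named after their values were seen. Among the pumps that return calcium to the stores or out of the cell, Atp2b2 averaged 659 ± 33.2 CPM in DKO and 1007 ± 66.8 CPM in WT (log2 -0.61, SE 0.05, edgeR adjusted p = 3.58e-11, SD, n = 5 each), and Atp2a2 was at -0.47 (SE 0.05). Ryr1, a calcium release channel beside Itpr1, had 27.2, 28.6, 18.5, 20.9 and 19.0 CPM in DKO, against 66.6, 36.4, 43.8, 45.7 and 46.5 CPM in WT, a log2 change of -1.07 (SE 0.15).

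The 3 genes that were higher were Itpkb, Itpr3 and Itpr2. Itpkb, a kinase that phosphorylates inositol trisphosphate, had 144, 154, 163, 149.9 and 153 CPM in DKO, against 78.5, 86.0, 79.5, 74.2 and 78.6 CPM in WT, a log2 change of 0.94 (SE 0.06, edgeR adjusted p = 2.1e-15). The groups were far apart. The other inositol trisphosphate receptor genes, Itpr3 and Itpr2, were at 0.51 (SE 0.11) and 0.23 (SE 0.07), opposite to Itpr1. Among the E libraries both lost the call, with edgeR adjusted p-values of 0.0535 and 0.0595, and Itpr2 lost it without WT replicate 2 too, at 0.0504. The phosphatase gene Inpp5a, which removes inositol trisphosphate and is abundant in Purkinje cells, was at -0.53 (SE 0.09). Of the 23, 0 passed in Glb1KO over WT, where 3.96% of all genes did, with a median of -0.08 for the 23.

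Family partners of the 10 genes divided: 13 of 27 were lower and 3 higher in DKO than in WT, with a median of -0.11. The shares of all genes were 15.1% lower and 14.0% higher. Beside Slc1a6, the astrocyte glutamate transporter gene Slc1a3 averaged 819 ± 60.3 CPM in DKO and 629 ± 53.5 CPM in WT (SD, n = 5 each; log2 0.38, SE 0.06), while Slc1a2, the other astrocyte transporter gene, was at -0.01 (SE 0.05). Beside Car8, Car2 was at -0.71 (SE 0.08) and Car10 at -0.39 (SE 0.05). Car2 is an enzyme of oligodendrocytes in brain and was lower in Glb1KO too, at -0.64 (SE 0.08). Beside Fat2, Fat3 was at -0.61 (SE 0.09).

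The genes whose levels followed Pcp2 most closely over the 20 libraries, among 15955 genes with a mean of at least 1 CPM, included the other 6 Purkinje genes, with r = 0.977 for Ppp1r17, 0.970 for Car8, 0.934 for Rgs8, 0.919 for Slc1a6, 0.903 for Calb1 and 0.888 for Itpr1. Among the 8 most alike outside the set were Arhgef33 (r = 0.969), Homer3 (0.949), Iltifb (0.927), Cep76 (0.925), Inpp5a (0.922), Kcng4 (0.917) and Gdf10 (0.915). Of these Arhgef33 and Homer3 are on the Purkinje-enriched list. Iltifb, at a mean of 2.29 CPM, is a near-identical copy of Il22, so its reads may be shared. These coefficients share library and genotype and are given as a description.

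Among the 8 genes most like Gabra6 were Nrep (r = 0.905), St18 (0.869), Etv1 (0.841), Zic1 (0.839), En2 (0.833), Cep76 (0.824) and Neurod1 (0.817). Etv1, Zic1, En2 and Neurod1 are on the granule list. The other granule genes of the set were less like it, with r = 0.518 for Fat2 and 0.389 for Cbln3, but after removal of the genotype means they were at 0.782 and 0.778. Pcp2 had r = 0.799 with Gabra6, against 0.130 with Fat2 and 0.107 with Cbln3. After removal of the genotype means, Pcp2 was at 0.734 with Gabra6, 0.521 with Fat2 and 0.688 with Cbln3.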

How the data were processed

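Per the labels' protocols, total RNA of 1 brain hemisphere each was isolated and polyadenylated RNA was made into libraries. The authors deposited read counts per gene and FPKM values; the submitters' processing notes name fastp, HISAT2 2.0.5, featureCounts 1.5.0-p3, DESeq2 1.20.0 and, as genome, mm10 or GRCm38, without roles or strand setting. The authors' deposited table of log2 fold changes of DKO over WT was used as a check only: for the 10 genes it differed from the values here by at most 0.00466.

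Counts were scaled with TMM, filtered with filterByExpr and fitted over all 20 libraries with edgeR 4.0.16 (limma 3.58.1, R 4.3.3) and its robust quasi-likelihood F test, with Benjamini-Hochberg adjustment at 0.05 over 18336 genes. SEs are the log2 fold change divided by the root of F. Alternatives were RLE scaling, no filter, DESeq2 1.42.0, the compared groups alone, a replicate block, an identifier letter term and leaving out each library. Relations used log2 CPM with a prior count of 2. Scripts were tested on simulated counts. The 10 genes and all lists were chosen with earlier results of these data known. Named genes are the 10 genes, from each list up to 4 with the smallest adjusted p in DKO over WT, up to 4 in Glb1KO over WT and up to 2 with the highest mean CPM, and the 8 genes most like Pcp2 and Gabra6; exceptions are stated. Some listed genes are not reported here by name.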

Additional observations from a re-analysis of the deposited data

Results flagged for a closer look

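The difference of DKO from Glb1KO departed from that of Neu3KO from WT in the interaction term of the all-gene edgeR fit for 5 of the 7 Purkinje genes, for 4 of the 10 other Purkinje-enriched genes and for 9 of the 17 Purkinje genes that other neurons share. All of these had negative interaction values, and 0 of the 3 granule genes passed. Of all genes tested 6.84% passed and 2.88% passed downward. With the identifier letter as a term 2 of the 7 Purkinje genes passed, and without DKO replicates 2 and 5 there were 4. The 7 genes and both lists were chosen with results of these libraries known, so the counts are a description. Of 44 tests for a library far from the other 4 of its genotype, 0 exceeded the critical value, where chance gives about 1 in 20. Each test measures the gap of 1 extreme library from its nearest neighbour. Libraries that were low together, as DKO replicates 2 and 5 were, can therefore hide each other in it.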

How the results depend on the processing

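The 7 Purkinje genes kept a negative log2 fold change of DKO over WT under every alternative run, and 5 to 7 of them were called. In DKO over Glb1KO 3 to 7 were called, the fewest among the E libraries, and in the interaction 2 to 6, the fewest with the letter term. Nothing is read from these counts, since the genes were chosen on contrasts with DKO. Of the 3 granule genes 0 to 1 was called in DKO over WT. Cbln3 and Fat2 did not keep the size or sign of theirs with the identifier letter, as given above. With the letter as a term, 3363 genes were called in DKO over WT, 315 in Glb1KO over WT and 1203 in DKO over Glb1KO, and among the E libraries 2640, 321 and 936. In DKO over Glb1KO among the E libraries, Cbln2 turned to 0.053 and Opalin to 0.21; the cause was not tested. Without DKO replicates 2 and 5 there were 5 other Purkinje-enriched genes called in DKO over WT. Without Neu3KO replicates 1 and 5 together, 3055 genes were called in DKO over Neu3KO and 791 in the interaction. In Glb1KO over WT the other Purkinje-enriched genes called were 1 with no filter and 2 with the groups alone, the shared Purkinje genes 3 with no filter, 2 by DESeq2 and 3 with the groups alone, and the granule genes 1 with no filter. In Neu3KO over WT 26 genes were called with no filter, 2 by DESeq2 and 3 with the groups alone.

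Leaving out 1 library at a time gave 4448 to 5356 genes in DKO over WT, with 7 to 10 other Purkinje-enriched, 12 to 13 shared and 2 to 4 granule genes. It gave 551 to 824 genes in Glb1KO over WT, with 0 to 1, 1 to 2 and 0 of the same lists, 0 to 1 in Neu3KO over WT, 2306 to 3009 in DKO over Glb1KO, 3783 to 4667 in DKO over Neu3KO and 984 to 1321 in the interaction. The relations ran from 0.885 to 0.963 for Pcp2 with Ppp1r17, 0.743 to 0.858 for Gabra6 with Fat2 and 0.642 to 0.805 for Pcp2 with Gabra6. With the replicate number as a block, 5207 genes were called in DKO over WT, 685 in Glb1KO over WT, 0 in Neu3KO over WT, 2774 in DKO over Glb1KO, 4448 in DKO over Neu3KO and 1136 in the interaction. Of 30 pairs with the same number, 0 had a correlation of deviations over 0.1 (from -0.129 to 0.0646), and 9 of 60 were best matched by their own number. No pairing by number was seen in these values, but a weak factor shared by libraries of the same number could go unseen. Pcp2 and Ppp1r17 rest on as few as 74 and 64 reads in DKO replicate 2, which limits their precision.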
